A study of Homo sapiens with 3 samples.

Results

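EGR1, EGR2, EGR3, IER2, IER3, IER5, DUSP1, DUSP5, DUSP6 and ZFP36 are early-response genes, many of which growth factors and stress switch on within minutes without new protein synthesis. These 10 of 19756 protein-coding genes were chosen by name, with earlier results of these data known. Every RBPJ and L3MBTL3 peak with its summit within 50 kb of a transcription start site (TSS) of one of them was then taken, which gave 28 of 2926 RBPJ peaks and 1 of 444 L3MBTL3 peaks. The peaks come from chromatin immunoprecipitation and sequencing (ChIP-seq) in MDA-MB-231, a human triple-negative breast cancer line. The groups were RBPJ ChIP (antibody RBPSUH D10A4), L3MBTL3 ChIP (a Bethyl anti-L3MBTL3 antibody) and input DNA without antibody, with 1 library each, all from cells grown in RPMI1640 with serum, with no treatment named. The input library was not used here. No replicate error can be had from single libraries, so counts stand beside the same count over all genes or all peaks, and no p-value is given.

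RBPJ, also called CBF1, is the DNA-binding protein of the Notch pathway: it holds corepressors at its sites until the cleaved Notch receptor replaces them. L3MBTL3 is a reader of methylated lysine that the series links to RBPJ and the demethylase KDM1A. The early-response genes have other known activators. Serum response factor (SRF) binds CArG boxes together with ETS-family partners that ERK phosphorylates, and CREB binds the cyclic AMP response element (CRE). The IER products are grouped here with the EGR products, which are transcription factors that carry the response forward. The DUSP products, which dephosphorylate MAP kinases, and ZFP36, which directs mRNAs with AU-rich elements to decay, are known to end it.

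The stretches printed next were chosen, 1 per gene with a peak, from windows within 100 bp of a summit that held a searched word. Other windows of IER2, IER3, IER5, DUSP1 and ZFP36 also held words and are not printed. All printed stretches are plus-strand hg19 reference sequence, with the words named for each in capitals. Some of these words lie past the called border of their peak: those of EGR1 and DUSP5, the second TEAD word of DUSP6 and the second NF-kB word of ZFP36, while the CRE of DUSP1 crosses the border. The EGR1 stretch holds the EGR word GCGGGGGCG on the minus strand, and the IER2 stretch holds the ETS core CCGGAA on both strands. The IER3 stretch, in the peak shared with L3MBTL3, holds the EGR word GCGTGGGCG on the minus strand and the RBPJ core TGGGAA. The IER5 stretch holds TGGGAA and the AP-1 word TGACTCA. The DUSP1 stretch holds an E-box, CACGTG, and a CRE, TGACGTCA. The DUSP5 stretch holds the high-affinity RBPJ word CGTGGGAA, and that of DUSP6 holds TGTGGGAA on the minus strand beside the TEAD word GGAATG on both strands. The ZFP36 stretch holds NF-kB words on the minus strand on either side of a GC box, GGGGCGGGG on the minus strand, and the AP-1 word TGAGTCA.
EGR1, chr5:137800479-137800575: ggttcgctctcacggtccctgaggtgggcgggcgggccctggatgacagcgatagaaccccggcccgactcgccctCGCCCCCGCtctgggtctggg
IER2, chr19:13278621-13278680: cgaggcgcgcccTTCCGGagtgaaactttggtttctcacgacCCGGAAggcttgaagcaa
IER3 and FLOT1, chr6:30710659-30710796: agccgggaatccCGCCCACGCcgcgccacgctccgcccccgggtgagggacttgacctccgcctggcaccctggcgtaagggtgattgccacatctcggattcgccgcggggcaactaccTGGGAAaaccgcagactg
IER5, chr1:181081703-181081776: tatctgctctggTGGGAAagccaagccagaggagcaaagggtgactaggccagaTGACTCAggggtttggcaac
DUSP1, chr5:172198289-172198335: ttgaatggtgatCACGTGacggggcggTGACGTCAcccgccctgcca
DUSP5, chr10:112290069-112290182: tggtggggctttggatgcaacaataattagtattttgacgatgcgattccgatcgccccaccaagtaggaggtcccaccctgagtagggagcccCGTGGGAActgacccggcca
DUSP6, chr12:89764681-89764802: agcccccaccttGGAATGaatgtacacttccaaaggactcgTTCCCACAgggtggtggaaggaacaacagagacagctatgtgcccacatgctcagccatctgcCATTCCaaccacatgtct
ZFP36, chr19:39894584-39894722: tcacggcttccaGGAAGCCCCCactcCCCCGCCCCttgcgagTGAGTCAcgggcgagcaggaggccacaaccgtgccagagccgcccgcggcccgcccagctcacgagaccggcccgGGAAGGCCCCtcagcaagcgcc

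RBPJ lay near most of these genes, and L3MBTL3 near 1. An RBPJ summit was within 50 kb of a TSS of 8 of the 10 genes (EGR1, IER2, IER3, IER5, DUSP1, DUSP5, DUSP6 and ZFP36), where 21.8% of all protein-coding genes had one. Of the EGR and IER genes 4 of 6 had an RBPJ peak, and of the DUSP genes and ZFP36 4 of 4 did. All 10 genes have a CpG-rich TSS (observed over expected CpG ratio above 0.6 in 1 kb, here 0.664 to 1.12), and among CpG-rich genes the share with an RBPJ summit within 50 kb was 25.3%. Of the 10 genes, 5 (EGR1, IER2, IER3, DUSP1 and DUSP6) had an RBPJ summit no farther than 1 kb from a TSS, as did 8.9% of all genes. IER2 is counted by an internal TSS, since its summit closest to its first TSS was 1302 bp away. Neither background was matched on gene activity, and its part in these counts was not tested. Since the genes were chosen with earlier results of these data known, the counts may not be independent of the peaks. An L3MBTL3 summit lay within 50 kb of IER3 alone, where 2.89% of all genes had one. A shared RBPJ peak, one that overlaps an L3MBTL3 peak by at least 1 bp, likewise lay near IER3 alone, against 1.01% of all genes. Since the L3MBTL3 list is short, 1 of 10 genes is a count on which little can rest.

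**Figure D1:**
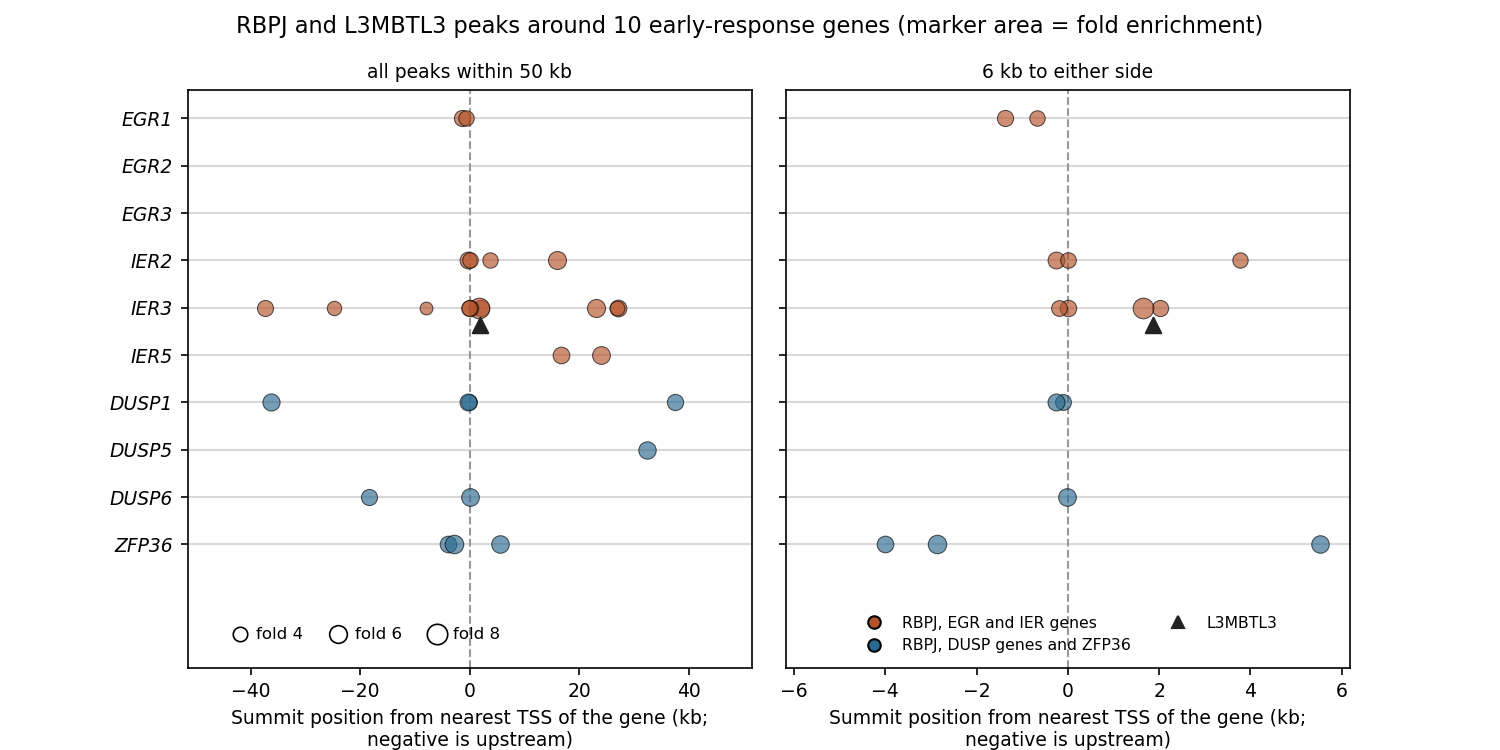
Summit positions of the RBPJ peaks (circles) and the L3MBTL3 peak (triangle) relative to the nearest TSS of each gene in kb, over 50 kb on the left and 6 kb on the right, with marker area proportional to fold enrichment. Peaks of EGR1, IER2, IER3, DUSP1 and DUSP6 sit within 1 kb of a TSS, those of IER5, DUSP5 and ZFP36 farther out, and EGR2 and EGR3 have none.

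The limit of 50 kb fell in a gap. The farthest peaks inside it were 37.5 kb downstream of DUSP1 (fold 5.08), 37.3 kb upstream of IER3 (4.95) and 36.2 kb upstream of DUSP1 (5.66). The nearest outside it were 57.3 kb downstream of IER3 (fold 5.94) and 64.8 kb upstream of ZFP36 (4.58).

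EGR1 encodes a zinc-finger transcription factor that binds GC-rich sequence (ENSG00000120738, chr5:137801168-137804992, plus strand). It had 2 RBPJ peaks, both upstream and outside protein-coding transcripts. The one at chr5:137800452-137800527 had its summit 677 bp upstream of the TSS with a fold of 4.56 and a -log10 q of 3.69. The one at chr5:137799763-137799872 had its summit 1379 bp upstream, with a fold of 5.02 and a -log10 q of 3.64. Both folds were below the median of the RBPJ list, 5.08, and neither window within 100 bp of the summit held an RBPJ word or the core TGGGAA. The closest L3MBTL3 summit was 9.37 Mb from the TSS.

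The EGR1 promoter holds 5 CArG boxes within 500 bp upstream of its TSS, more than any other gene in the annotation: 1 of 19756 genes had 3 or more, and 2.41% had at least 1. The boxes end 73, 95, 354, 370 and 408 bp upstream of the TSS. None lay inside an RBPJ peak, and the RBPJ summit nearest to a box was 259 bp from it. Of the 10 genes, EGR2 (2 boxes), EGR3 (1) and DUSP5 (2) also had CArG boxes in this window. These boxes are shown because they mark the known SRF input at EGR1 and DUSP5 beside which the RBPJ peaks can be placed, with the boxes in capitals on the plus strand of hg19.
EGR1 distal boxes, chr5:137800738-137800827: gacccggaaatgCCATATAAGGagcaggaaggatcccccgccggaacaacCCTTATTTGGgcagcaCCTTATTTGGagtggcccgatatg
EGR1 proximal boxes, chr5:137801048-137801107: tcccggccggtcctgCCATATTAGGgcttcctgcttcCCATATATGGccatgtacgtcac
DUSP5 boxes, chr10:112257575-112257614: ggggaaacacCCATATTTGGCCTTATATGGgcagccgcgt

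IER2 encodes a small nuclear protein of the early response (ENSG00000160888, chr19:13261225-13265725, plus strand). It had 4 RBPJ peaks. At chr19:13262483-13262678, in an IER2 intron 262 bp upstream of an internal IER2 TSS, the fold was 5.46. At chr19:13262759-13262832, with the summit 1 bp from that TSS and in UTR sequence, it was 4.67. These are 1302 and 1565 bp downstream of the first IER2 TSS, so they lie inside the gene rather than at its start. At chr19:13266356-13266726, past the gene's end, the fold was 4.54. At chr19:13278367-13278822, 15.9 kb downstream of the internal TSS and 17.43 kb downstream of the first, it was 6.24 with a -log10 q of 8.05. This last one was the widest of the IER2 peaks at 456 bp, and 85.3% of RBPJ peaks had a lower fold. It held the pair of ETS cores printed above, with centres 20 and 10 bp from the summit. The core TGGGAA was found at IER2 in the peak past the gene's end only, 42 bp from its summit.

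IER5 encodes a nuclear protein related to IER2 that takes part in the heat-shock response (ENSG00000162783, chr1:181057836-181062036, plus strand). It had no RBPJ peak at its promoter and 2 downstream of the gene. At chr1:181074456-181074556, 16.7 kb from the TSS, the fold was 5.33. At chr1:181081551-181081877, 23.9 kb from the TSS, it was 6.09, and that peak held TGGGAA and, 4 bp from the summit, the AP-1 word printed above. IER5 was the protein-coding gene with the nearest TSS to both, and no other protein-coding gene had a TSS within 50 kb of its own.

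IER3 encodes a stress-inducible regulator of cell survival (ENSG00000137331, chr6:30710976-30712325, minus strand). It had 10 RBPJ peaks, a number reached by 0.0557% of all genes, and the 1 L3MBTL3 peak. At its own promoter were chr6:30712294-30712373, with the summit 2 bp from the TSS and a fold of 5.20, and chr6:30712432-30712532, 189 bp upstream, with a fold of 4.77. Neither of these promoter windows held any of the 11 words sought. The strongest RBPJ peak of all 28, with a fold of 8.19 and a -log10 q of 13.2, lay at chr6:30710396-30710944, 1639 bp downstream of the IER3 TSS, past the IER3 gene's end. It ranked 61 by fold among the 2926 RBPJ peaks.

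That peak is also 221 bp from the TSS of FLOT1, which encodes a membrane-raft scaffold protein and is the nearer gene. The L3MBTL3 peak, chr6:30710441-30710517, overlapped it with a fold of 4.54 and a -log10 q of 2, where 14.9% of L3MBTL3 peaks had a lower fold. Its summit was 9 bp from the FLOT1 TSS, in FLOT1 UTR sequence, and 230 bp from the summit of the RBPJ peak it overlapped. A smaller RBPJ peak at chr6:30710249-30710314 (fold 5.08) had its summit nearer to the L3MBTL3 summit, 154 bp away, without overlapping that peak. FLOT1, not IER3, is therefore the gene whose TSS carries the shared region.

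**Figure D2:**
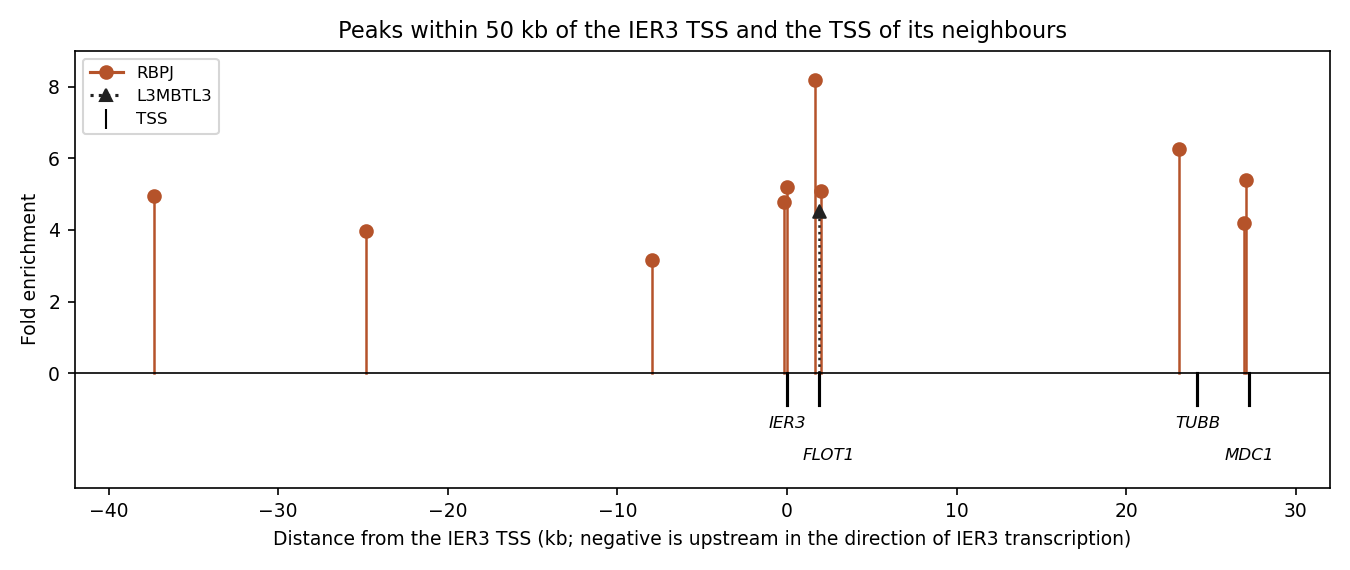
Fold enrichment (vertical axis) of the 10 RBPJ peaks and the L3MBTL3 peak against distance from the IER3 TSS in kb, with the TSS of IER3, FLOT1, TUBB and MDC1 marked below the line. The highest RBPJ peak and the L3MBTL3 peak stand at FLOT1, 1.86 kb from the IER3 TSS, and a further group of 3 RBPJ peaks at TUBB and MDC1.

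The neighbours account for many of the IER3 peaks. FLOT1, TUBB (a beta-tubulin) and MDC1 (a DNA damage checkpoint protein) have TSS within 50 kb, and 2, 1 and 2 of the 10 peaks were nearest to them. The other 5 were nearest to IER3: the promoter pair and peaks 7951, 24797 and 37295 bp upstream, with folds of 3.16, 3.97 and 4.95. The first of these, at chr6:30720127-30720329, was the lowest fold of all 28 (-log10 q 1.41). Its peak held TGGGAA and a TEAD word, and its search window held an AP-1 word past the peak's border, 68 bp from the summit. FLOT1 has the same 10 RBPJ peaks within 50 kb and TUBB shares 9 of them, so 10 peaks near IER3 do not count as 10 observations about IER3.

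EGR2 (ENSG00000122877, chr10:64571756-64578927, minus strand) and EGR3 (ENSG00000179388, on chromosome 8, minus strand) encode zinc-finger factors related to EGR1. Neither had a peak of either protein within 50 kb. The nearest RBPJ summit was 812 kb from an EGR2 TSS and 130 kb from an EGR3 TSS, and the nearest L3MBTL3 summit 7.64 and 2.49 Mb. EGR1 was thus the 1 EGR gene of the 3 with RBPJ peaks. No peak at EGR2 or EGR3 means that none passed the peak caller's threshold in this library, since signal below it is not in a peak list.

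DUSP1 encodes a nuclear phosphatase of p38, JNK and ERK (ENSG00000120129, chr5:172195099-172198198, minus strand). It had 4 RBPJ peaks, a number reached by 1.48% of all genes, among them IER2, IER3 and DUSP1 of the 10. Its promoter carried chr5:172198181-172198320, with the summit 106 bp upstream of the TSS and a fold of 4.83, and chr5:172198424-172198494, 265 bp upstream, with a fold of 5.52. The E-box of the first was centred on the summit and the CRE 16 bp from it. The CRE was found in no other of the 28 windows. The second window held none of the words. The remaining peaks, 37.5 kb downstream at chr5:172160698-172160752 and 36.2 kb upstream at chr5:172234432-172234486, had folds of 5.08 and 5.66, and the upstream one was nearer to a TSS of ERGIC1.

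DUSP6 encodes the cytoplasmic phosphatase of ERK (ENSG00000139318, chr12:89741012-89746278, minus strand). A peak at its TSS, chr12:89746262-89746316, had its summit 14 bp upstream, a fold of 6.01 and a -log10 q of 4.99, the highest fold of the 8 peaks within 1 kb of a TSS of these genes. Its window held none of the words. A further peak at chr12:89764672-89764776, 18429 bp upstream, had a fold of 4.98 and held the high-affinity word TGTGGGAA 18 bp from the summit. DUSP6 thus had a TSS peak without an RBPJ word and, with a lower fold, a distal peak with one.

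DUSP5 encodes the nuclear phosphatase of ERK (ENSG00000138166, chr10:112257665-112271291, plus strand). It had 1 RBPJ peak, at chr10:112290047-112290117, 32.4 kb downstream of the TSS, with a fold of 5.83 and a -log10 q of 5.16. Its high-affinity word CGTGGGAA lay 86 bp from the summit and outside the peak's own borders. The DUSP5 promoter, where the CArG boxes are, had no peak of either protein.

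ZFP36 encodes tristetraprolin, which binds AU-rich elements in mRNA (ENSG00000128016, chr19:39897487-39900052, plus strand). It had 3 RBPJ peaks and none within 1 kb of its TSS. At chr19:39893455-39893557, 4009 bp upstream, the fold was 5.33. At chr19:39894529-39894700, 2866 bp upstream, it was 6.57 with a -log10 q of 6.19, and 89.9% of RBPJ peaks had a lower fold. At chr19:39902978-39903299, 5526 bp downstream, the fold was 5.92, but that summit was 286 bp from the TSS of PLEKHG2. All 3 windows held NF-kB words, 5 copies in all. At least 1 was in 9.95% of all RBPJ windows and in 8.09% of windows at the TSS of all genes. The copies at chr19:39893566-39893575, chr19:39894701-39894710 and chr19:39902960-39902969 lay past the called borders of their peaks. The last is the only copy found in the window nearest to PLEKHG2. The middle peak also held an AP-1 word 8 bp from its summit.

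**Figure D3:**
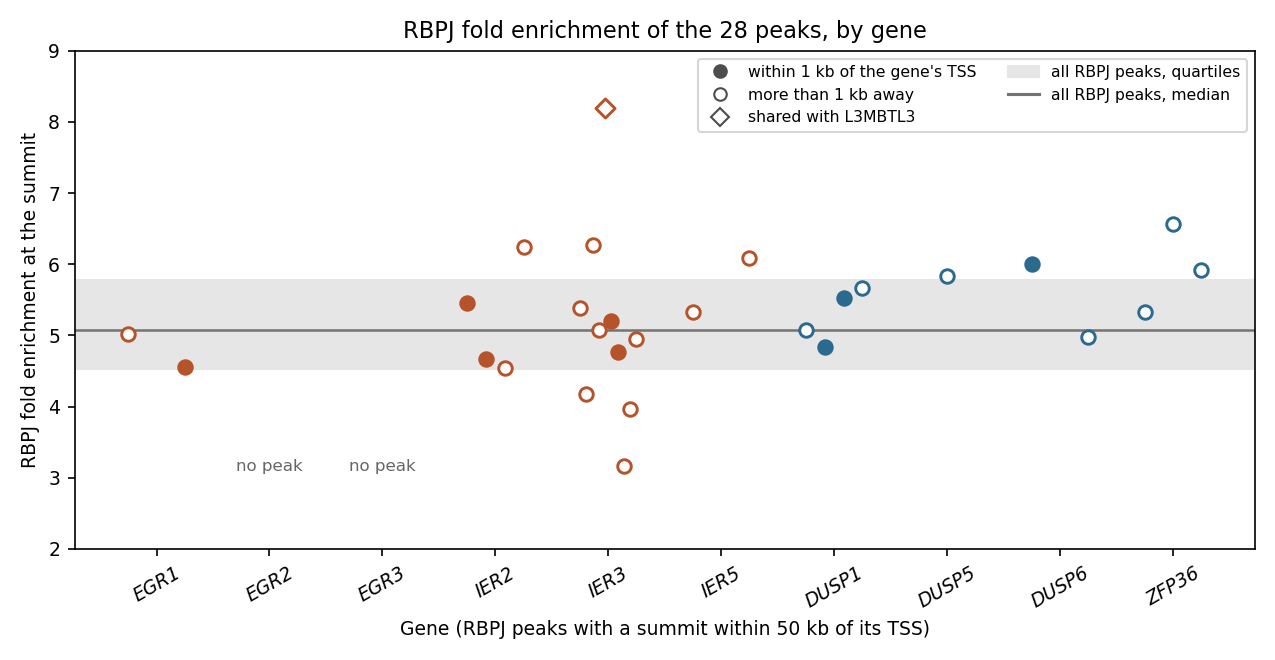
RBPJ fold enrichment of each of the 28 peaks, by gene and in genomic order within a gene, with filled points for peaks within 1 kb of the gene's TSS and open ones for the rest, over the quartile band and median of all RBPJ peaks. Most points lie in or near the band of 4.53 to 5.78, and the shared peak near IER3, at 8.19, stands above all others.

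In strength the 28 peaks were ordinary members of the RBPJ list. Their median fold was 5.26 (quartiles 4.81 and 5.85, range 3.16 to 8.19), beside 5.08 (4.53 and 5.78, range 2.09 to 21.3) for all 2926, and 16 of the 28 were above the list's median. A -log10 q of at least 5 was reached by 5 of the 28 peaks, near IER2, IER3, DUSP5 and ZFP36, and by 21.9% of all RBPJ peaks. By gene, 4 of the 10 had such a peak within 50 kb, against 6.17% of all genes. For IER3 these peaks (-log10 q 7.32 and 13.2) were nearest to TUBB and FLOT1. Of the 21 peaks with one of the 10 genes nearest, 3 reached that q. The 8 peaks within 1 kb of a TSS of these genes had a median fold of 5.01 and the 20 farther away one of 5.33, and none of the 8 reached that q. Many folds are tied: 19 of the 28 have exactly the fold and q of at least 1 other peak in the list, and 59 peaks have the 5.33 of IER5 and ZFP36. The 2926 peaks hold 955 distinct folds. With 1 library the error of a fold is unknown, so little can rest on small differences between folds.

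Set side by side, the EGR and IER genes had 18 RBPJ peaks and the DUSP genes and ZFP36 had 10. The median fold was 5.05 (range 3.16 to 8.19) for the EGR and IER genes and 5.59 (4.83 to 6.57) for the DUSP genes and ZFP36, so the ranges overlap. Both ends of the EGR and IER range are peaks near IER3, the higher of them nearest to FLOT1. Without IER3 the EGR and IER genes had 8 peaks with a median of 5.17 and a range of 4.54 to 6.24, which also overlaps that of the DUSP genes and ZFP36. A peak within 1 kb of a TSS was found for 3 of 6 EGR and IER genes (EGR1, IER2, IER3), IER2 by an internal TSS only. In the set of the DUSP genes and ZFP36 it was found for 2 of 4 (DUSP1, DUSP6). The high-affinity RBPJ word was in 0 of 18 windows of the EGR and IER genes and in 2 of 10 windows of the DUSP genes and ZFP36. Of all RBPJ windows 8.51% held it. In the same order, the EGR word was in 3 of 18 and 0 of 10 (7.96% of all). GC boxes were in 6 and 1 (21.8%), NF-kB words in 1 and 3 (9.95%), and E-boxes in 0 and 2 (6.87%). ETS cores were in 2 and 3 (15.4%), TEAD words in 3 and 3 (13.7%), and the CRE in 0 and 1 (1.57%). At such shares little can rest on 0 windows in a set of 18 or 10. With 1 library and this few peaks, these differences were not tested.

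**Figure D4:**
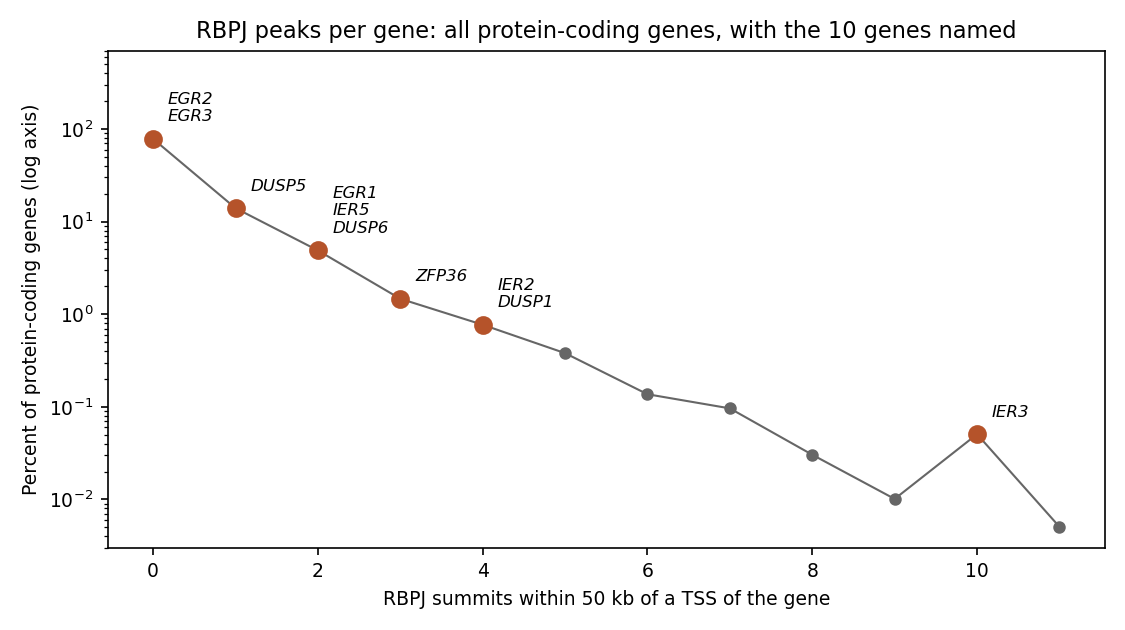
Percent of all 19756 protein-coding genes (log axis) by the number of RBPJ summits within 50 kb of a TSS, with the 10 genes named at their own number. EGR2 and EGR3 stand with the 78.2% of genes that have none, DUSP5 has 1, and IER3 stands alone among the 10 at 10.

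Several peaks around 1 gene were frequent in the group. At least 2 RBPJ summits lay within 50 kb of 7 of the 10 genes (EGR1, IER2, IER3, IER5, DUSP1, DUSP6 and ZFP36), beside 7.83% of all genes. Many of these peaks lay close together, as the promoter pairs of IER3 (187 bp between summits) and DUSP1 (159 bp) show. The search windows of these neighbours share sequence. Of the 28 peaks, 21 had one of the 10 genes as the nearest protein-coding gene. By position, 22 summits were outside protein-coding transcripts, 4 in UTR sequence and 2 in introns. Summits within 1 kb of any protein-coding TSS were 14 of the 28, beside 64.1% of all RBPJ peaks.

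The 11 words were sought on both strands within 100 bp of each summit. They were the high-affinity RBPJ word (CGTGGGAA or TGTGGGAA), its core TGGGAA, the CArG box, the ETS core CCGGAA, the CRE TGACGTCA, AP-1 (TGACTCA or TGAGTCA), EGR (GCGTGGGCG or GCGGGGGCG), TEAD GGAATG, NF-kB, the E-box CACGTG and the GC box GGGGCGGGG. The core is part of the high-affinity word, EGR and GC box words can overlap as they do at IER5, and TEAD and core words can share letters. The high-affinity word was in 2 of 28 windows (7.14%), beside 8.51% of all RBPJ windows and 1.21% of windows at the TSS of all genes. The core was in 6 (21.4%), beside 29.5% and 13.5%. It lay near IER2, IER3, IER5, DUSP5 and DUSP6. Both words were more frequent away from promoters. For summits within 1 kb of any protein-coding TSS, the core was in 1 of 14 windows, beside 21.5% of such RBPJ windows. For the rest it was in 5 of 14, beside 43.9%. The high-affinity word was in 0 of 14, beside 5.6%, and for the rest in 2 of 14, beside 13.7%.

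**Figure D5:**
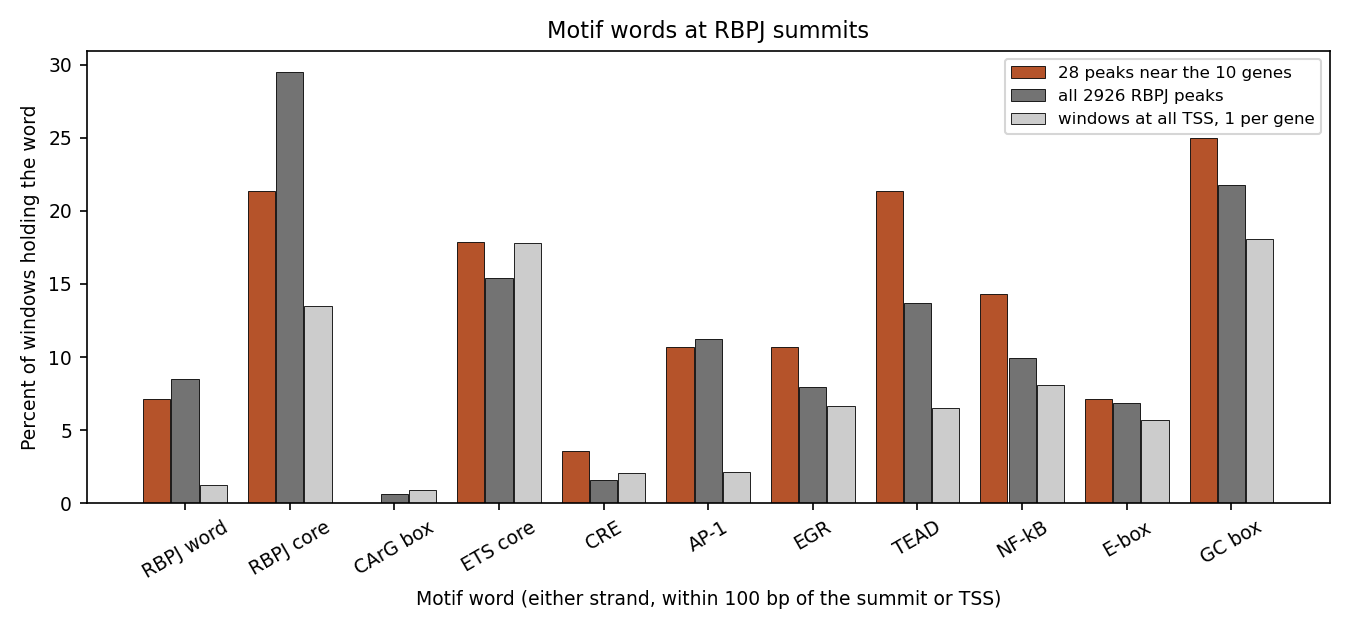
Percent of windows that hold each word, for the 28 peaks near the 10 genes, all 2926 RBPJ peaks and windows at the TSS of all genes. The bars of the 28 peaks rest on 0 to 7 windows each, and the CArG box bar is at 0.

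Words of the factors known to drive these genes were about as frequent as in the whole list. At least 1 of the CArG, CRE, AP-1, ETS, TEAD, EGR, NF-kB and E-box words was in 15 of 28 windows (53.6%) and in 51.9% of all RBPJ windows. For summits within 1 kb of any protein-coding TSS the shares were 50% and 47.8%, and for the rest 57.1% and 59.4%. The CArG box was in 0 of 28 and in 0.615% of all RBPJ windows. The ETS core was in 5 of 28 (IER2, IER3, DUSP1, ZFP36) and in 15.4% of all. AP-1 words were in 3 (IER3, IER5, ZFP36) and in 11.2%, and TEAD words in 6 (IER2, IER3, DUSP6, ZFP36) and in 13.7%. EGR words were in 3 (EGR1, IER3, IER5) and in 7.96%, and NF-kB words in 4 (IER5, ZFP36) and in 9.95%. The CRE was in 1 (DUSP1) and in 1.57%, E-boxes in 2 (DUSP1, ZFP36) and in 6.87%, and GC boxes in 7 (IER2, IER3, IER5, ZFP36) and in 21.8%. A word in a window describes the sequence and does not show which factor was bound. The median GC content of the windows was 62.4% for the 28 and 68.7% for all RBPJ peaks.

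Relatives and regulators of the 10 genes, and other primary response genes, were counted in the same way, beside the 21.8% of all genes with an RBPJ summit within 50 kb. These lists too were chosen with earlier results of these data known, and differences between them were not tested. Of 11 family relatives (EGR4, IER5L, ZFP36L1, ZFP36L2 and 7 DUSP genes), 3 had one. These were DUSP4 (fold 5.99, 290 bp upstream of its TSS), DUSP7 (4.18) and IER5L (4.90, with the PTPA TSS 6 bp away). Of the EGR corepressors NAB1 and NAB2, NAB2 had one 152 bp upstream of its TSS (6.29). Of 7 inhibitors of ERK signalling, SPRY4 (6.38, 172 bp upstream) and SPRED2 (5.86) had one. Of 13 regulators of the serum response, SRF had 3 peaks (highest fold 4.04, 192 bp from its TSS) and RPS6KA4 had 2 (highest 5.23, nearer to ESRRA). Of 26 other primary response genes 17 had an RBPJ summit, with the highest folds near MCL1 (9.40), KLF4 (7.73) and FOSB (7.16). The FOSB peak was 23.6 kb from FOSB and nearer to ERCC1. Over these 59 genes 25 had an RBPJ summit (42.4%), of which 17 were from that list of 26, and the other 4 lists together had 8 of 33 (24.2%). Of the 59, 1, FOSB, had an L3MBTL3 summit within 50 kb (fold 5.71), beside 2.89% of all genes. None had a shared peak, beside 1.01% of all genes. With shares this low, little can rest on these counts.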

How the data were processed

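Per the labels' protocols, 50-cycle single-end HiSeq 2500 reads had adaptors removed by Trimmomatic, and BWA 0.7.15 placed 30 to 40 M (megareads) per library on hg19. Per the submitters' processing notes, peaks were called with MACS2. Not given in the sources used here are its version, its cutoff and its control. The deposited peak lists give, for each peak, a fold enrichment (a ratio over local background) and -log10 p and q values as the authors' caller wrote them. The deposited score is 10 times the -log10 q, truncated, in all 3370 rows. Neither read counts nor replicates are given, so the error of a fold is unknown, and folds were not compared between the lists.

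TSS are those of protein-coding transcripts in GENCODE 44 lifted to GRCh37 (78532 TSS, chromosomes 1 to 22 and X), and sequence is GRCh37, read with pysam 0.24.0 in Python 3.11.15. Counting was checked on planted peaks and words. The named genes are the 10 members and, of each other list, those with a shared peak and the 3 with the highest RBPJ fold. Members, lists and words were chosen with earlier results of these data known. Alternatives varied the distance, peak threshold, TSS set, gene assignment, overlap rule and word window. Leaving out IER3 was added after seeing the data.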

Additional observations from a re-analysis of the deposited data

How the results depend on the processing

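Of 73 recomputed values, 44 stayed within 1.5 times the reported count (or 1 SD of the 28 folds for the median, 5.26). At 10 kb 16 RBPJ peaks were left of 28. At 1 kb 5 of the 8 genes and 8 RBPJ peaks were left. From the set made up of the DUSP genes and ZFP36, 2 of 4 members (DUSP1 and DUSP6) were left. There were then 0 genes with L3MBTL3 or shared peaks (0 L3MBTL3 peaks). A -log10 q of at least 5 left 5 RBPJ peaks near 4 genes (IER2, IER3, DUSP5 and ZFP36), IER3 by peaks nearest to TUBB and FLOT1. It also left 0 L3MBTL3 or shared peaks, 1 peak with the RBPJ word and 3 with a word of another factor. Folds of at least the list median left 16 RBPJ peaks and 0 L3MBTL3 or shared ones. Counting only peaks whose nearest gene is the member left 0 genes with L3MBTL3 or shared peaks, since that region is nearer to FLOT1. With summits within 100 bp asked of shared peaks, 0 genes had one. The RBPJ word was in 1 window within 50 bp and in 1 peak's own borders. In the wider window tried 26 peaks held a word of another factor, in place of 15. A longer window can only hold as many words or more, and its share over all RBPJ peaks was not computed. Leaving out IER3 left 18 RBPJ peaks, 8 of them near EGR and IER genes. Using all transcripts or peak edges left the 7 counts of genes and peaks recomputed that way as reported, and the word counts, the median and the count of EGR and IER peaks were not recomputed there. The causes were not tested beyond the fewer peaks or shorter distances that the settings themselves impose. With 1 library per antibody no library could be left out, and depth per peak is unknown.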

Other observations

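Crowding of RBPJ peaks was found at few places. The 11 genes with 10 or more RBPJ summits within 50 kb lie on 4 chromosomes. IER3, FLOT1 and TUBB are on chromosome 6, ZSWIM4 is on chromosome 19, and PLEC and PARP10 are on chromosome 8. EFEMP2, CTSW, FIBP, CCDC85B and FOSL1, the last an AP-1 subunit of the early response, are on chromosome 11. There EFEMP2 had 11 summits and the other genes 10 each, and none of them shared a peak with IER3.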
